A study of Mus musculus with 2 samples.

Results

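The G2 and mitosis genes described here are 52 genes whose products carry a cell from the end of DNA replication through division. They were taken by name from a list, and a member had to have at least 20 UMIs (unique molecular identifiers, each standing for 1 captured RNA molecule) over both libraries. All 52 met this, among 13757 genes that did so. The data are single-cell transcriptomes of the mouse jejunum. All animals carried the Lgr5-eGFP-IRES-CreER allele, in which the GFP reporter follows Lgr5, a marker gene of crypt base stem cells. Per the labels, GFP-positive cells of 3 female mice of 10 to 12 weeks were sorted per condition and gave 1 droplet library each. Mice of the first condition received an Fc control, and those of the second a FZD5/8 antagonist, which targets a pair of receptors that Wnt ligands bind. The sources used here give neither dose nor duration, and cells cannot be assigned to mice. The question put to these genes was whether their levels differed between the libraries through more cells that hold them or through a higher level in each such cell.

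In late G2, cyclin A and cyclin B activate the kinase CDK1, which starts chromosome condensation and breakdown of the nuclear envelope. Kinetochores then bind spindle microtubules, checkpoint kinases hold back the anaphase-promoting complex until all chromosomes are attached, and destruction of cyclin B lets the cell divide. In the small intestine, the stem cells and the transit-amplifying cells of the crypt divide, whereas mature enterocytes, goblet cells and Paneth cells do not.

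Many promoters of this gene class hold a CHR element (cell cycle genes homology region, TTTGAA) and CCAAT boxes, which are known as contact points of the MuvB complexes and of NF-Y. Promoter windows of 250 bases before the start were found for 45 of the 52 members in a RefSeq table (GRCm38.p6). TTTGAA, read on either strand as TTTGAA or TTCAAA, was present in 19 of these 45 windows (42.2%), against 18.3% of 27025 genes. CCAAT, read as CCAAT or ATTGG, was present in 35 (77.8%), against 37.5%. Both motifs were present in 17 (37.8%), against 6.45%. A match is a match of letters and no evidence of binding. The 4 members with the most UMIs among those with both motifs are shown, because the results below turn on well-counted genes. Each line runs 5′ to 3′ on the gene's strand, from 10 bases before the first match to 10 bases after the last where the window allows, with TTTGAA and CCAAT on either strand in capitals. CCAAT and ATTGG can overlap, as they do in Ube2c. The stretches lie at chr8:57511593-57511842 on the plus strand for Hmgb2, chr11:99024197-99024426 on the minus strand for Top2a, chr2:164769691-164769915 on the plus strand for Ube2c and chr7:135716462-135716577 on the minus strand for Mki67.
Hmgb2: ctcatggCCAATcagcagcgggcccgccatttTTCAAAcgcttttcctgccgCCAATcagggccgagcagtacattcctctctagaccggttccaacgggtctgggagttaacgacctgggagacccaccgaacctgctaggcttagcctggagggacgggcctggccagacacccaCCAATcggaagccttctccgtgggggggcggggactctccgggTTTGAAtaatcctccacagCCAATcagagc
Top2a: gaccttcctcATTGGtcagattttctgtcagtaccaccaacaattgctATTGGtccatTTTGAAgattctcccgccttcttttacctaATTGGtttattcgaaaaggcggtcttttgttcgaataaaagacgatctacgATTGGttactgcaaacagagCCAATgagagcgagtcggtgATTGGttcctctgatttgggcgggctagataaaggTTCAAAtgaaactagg
Ube2c: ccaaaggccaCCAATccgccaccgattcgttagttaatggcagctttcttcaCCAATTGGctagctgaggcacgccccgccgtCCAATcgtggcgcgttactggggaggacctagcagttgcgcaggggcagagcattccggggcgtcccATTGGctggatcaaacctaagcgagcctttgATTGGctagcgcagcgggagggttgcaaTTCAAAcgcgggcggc
Mki67: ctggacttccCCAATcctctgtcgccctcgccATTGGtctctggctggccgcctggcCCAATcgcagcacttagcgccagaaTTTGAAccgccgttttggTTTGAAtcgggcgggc
In Hmgb2 the TTTGAA nearest to the start ended 25 bases before it, in Top2a 18 bases and in Ube2c 24 bases. In Mki67 the nearest ended 93 bases before the start.

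Facts of the libraries bear on every comparison. The deposited barcodes numbered 12672 for the control, with 67411637 UMIs, and 13085 for the antagonist, with 55810293 UMIs. After filtering, 11263 control cells with a median of 4478 UMIs and 11019 antagonist cells with a median of 2732 UMIs remained. Lgr5 was at 66.2 CPM (counts of a gene per 1000000 kept UMIs) in control and 3.09 CPM in antagonist cells, Axin2 at 137 and 29.5 CPM, and Olfm4 at 2325 and 323 CPM. Both libraries are labelled female, yet Xist was at 1.33 CPM in the control and 512 CPM in the antagonist library, and 4 Y-linked genes together were at 106 and 5.60 CPM. In the control library these values disagree with the label. A difference in sex between the libraries and the condition cannot be told apart for any ratio given here. Summed markers of immune, stromal, endothelial and red blood cells lay between 0.0453 and 23.9 CPM in the control library and between 0 and 3.75 CPM in the antagonist library. Paneth cell markers summed to 31196 and 24481 CPM, goblet cell markers to 4074 and 5064, enterocyte markers to 1704 and 2751, tuft cell markers to 216 and 188, enteroendocrine markers to 197 and 138, and stem cell markers to 3842 and 739.

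A set of 145 barcodes occurred in both libraries. Kept cells with such a barcode were 85 in the control and 127 in the antagonist library. In the antagonist library they were 1.15% of the kept cells but held 12.3% of its UMIs, with a median of 64920 UMIs a cell. In the control library they held 2.78% of the UMIs, with a median of 3863. The summed members were at 7379 CPM in these antagonist cells and at 5805 CPM in the other antagonist cells, against 1060.3 and 4674 CPM in the control library. Counts over all cells, and the log2 ratios of 10 members, are given below without them too.

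Since each condition had 1 library, differences could not be checked against replicates and none was tested. Each comparison is between these libraries, and intervals are at 95% and cover only the error of counting. A ratio is the antagonist library's CPM over the control library's.

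Over all cells, the members as a group were higher in the antagonist library. Of the 52, 50 had a ratio above 1, while 34.7% of all 13757 genes did. The interval lay above 1 for 45 members (22.3% of all genes), below 1 for 1 member (46.3% of all genes) and included 1 for 6. The median ratio was 1.31, a log2 ratio of 0.39, against a median log2 ratio of -0.15 over all genes. Summed, the members were at 4574 CPM in the control and 5999 CPM in the antagonist library. Differences were small in size: 6 members were at least 1.5-fold higher (6.51% of all genes) and 1 was at least 1.5-fold lower (19.5% of all genes). Without the barcodes found in both libraries, a choice made after seeing the data, 47 members had a ratio above 1, 2 were at least 1.5-fold higher and the median log2 ratio was 0.30. The shares over all genes were not computed without these barcodes, so these counts cannot be set against 34.7% or 6.51%. None of the 46 members whose interval excluded 1 changed direction, but Tubb4b fell from 0.80 to 0.66 on the log2 scale, Birc5 from 0.77 to 0.71, Aurkb from 0.61 to 0.48, Nuf2 from 0.62 to 0.49, Hmgb2 from 0.50 to 0.40, Ube2c from 0.48 to 0.39 and Ccnb1 from 0.53 to 0.42, and Psrc1 went from -1.08 to -1.16.

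**Figure D1:**
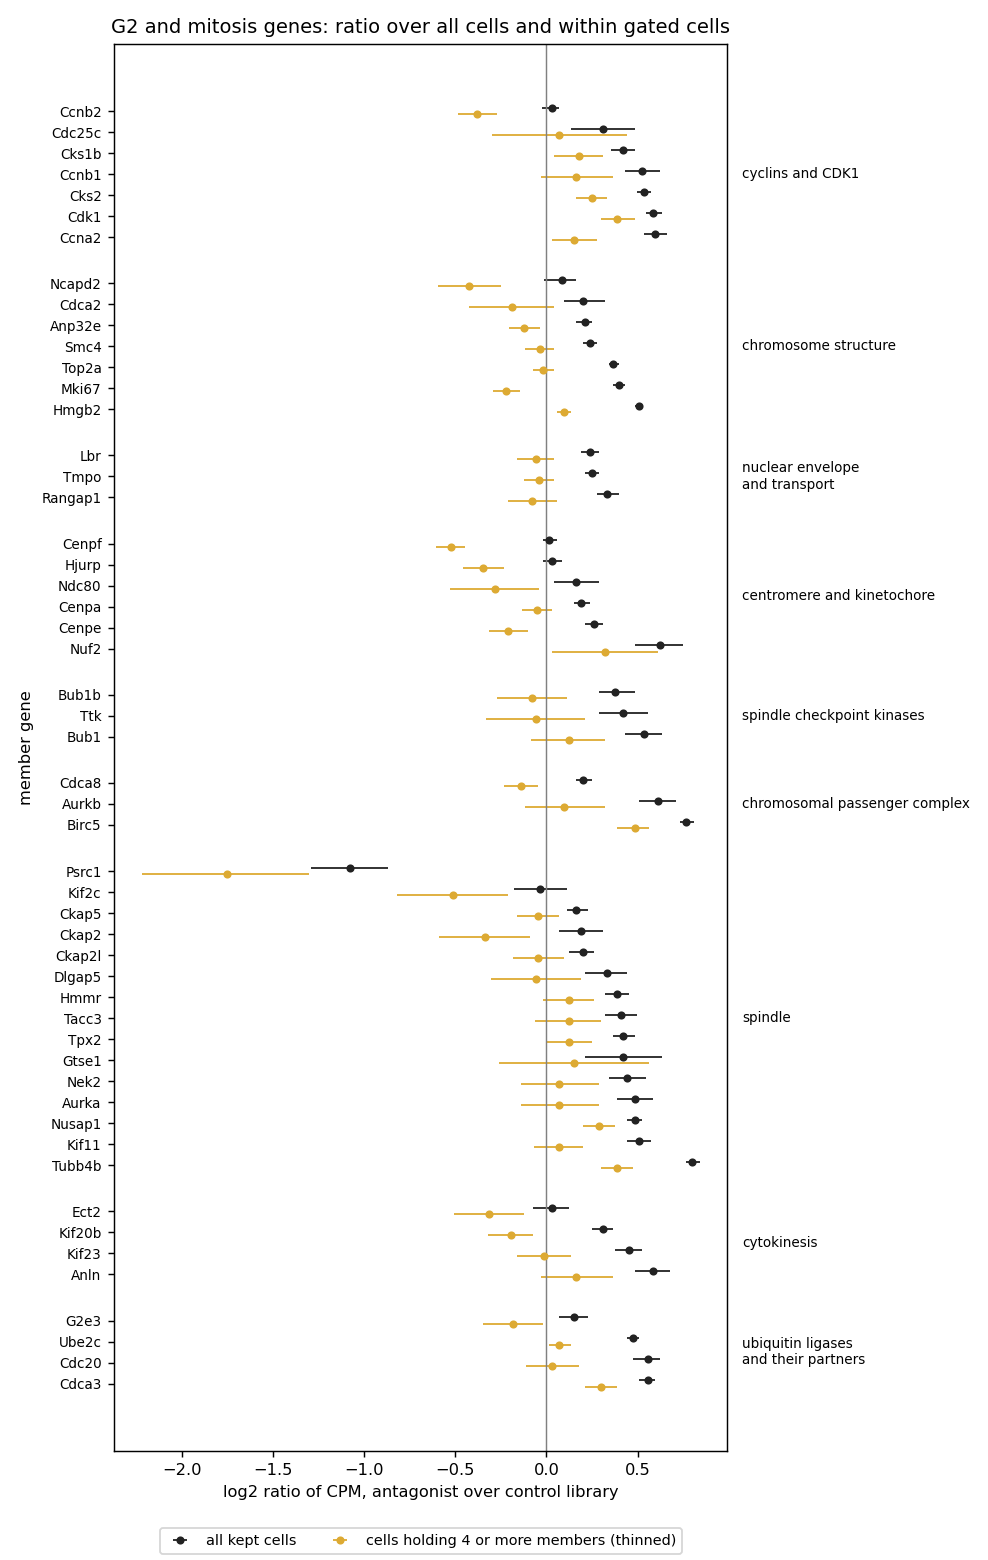
Log2 ratio of CPM, antagonist over control library, for each of the 52 members, grouped by role, over all kept cells (black) and within cells holding 4 or more members after thinning to 2000 UMIs (yellow); bars are 95% counting intervals. Black points lie right of 0 for 50 members, with Psrc1 far to the left, while yellow points lie right of 0 for 24.

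The cyclin and CDK1 group had 7 members, all with a ratio above 1 and 6 with an interval above 1, and a median ratio of 1.44. Ccna2 (chromosome 3, 36564865 to 36572150, GRCm38), the A-type cyclin of S phase and G2, was at 55.2 CPM in the control and 83.4 CPM in the antagonist one, which gave a ratio of 1.51 (1.45 to 1.58). Cdk1 (chromosome 10, 69335146 to 69352938), the kinase that drives entry into mitosis, was at 106 and 159 CPM, which gave a ratio of 1.5 (1.46 to 1.55). Ccnb1 (chromosome 13, 100778650 to 100786570), a B-type cyclin, was at 24.4 and 35.2 CPM, which gave a ratio of 1.44 (1.35 to 1.54). The other B-type cyclin differed from it: Ccnb2 (chromosome 9, 70407692 to 70421547) was at 103 and 105 CPM, which gave a ratio of 1.02 (0.982 to 1.05). Thus the partner kinase and 2 of its 3 mitotic cyclins here had ratios from 1.44 to 1.51, and the interval of Ccnb2 included 1.

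Among 7 genes of chromosome structure, the ratio was above 1 for all, the interval above 1 for 6, and the median ratio 1.18. Hmgb2, a DNA-bending chromatin protein, was at 715 and 1014 CPM, which gave a ratio of 1.42 (1.40 to 1.44). Mki67 (chromosome 7, 135689784 to 135716361), which encodes the proliferation antigen Ki-67 that coats mitotic chromosomes, was at 187 and 247 CPM, which gave a ratio of 1.32 (1.29 to 1.35). Top2a (chromosome 11, 98992943 to 99024189), the topoisomerase that untangles sister chromatids, was at 307 and 397 CPM, which gave a ratio of 1.29 (1.27 to 1.32). Ncapd2, a condensin subunit, had the lowest ratio of the group at 1.06 (0.992 to 1.12). Without the barcodes found in both libraries the log2 ratio of Mki67 was 0.24, against 0.40 with them, and that of Top2a 0.31, against 0.37.

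The 3 genes of the nuclear envelope and nuclear transport had ratios from 1.18 for Lbr, the lamin B receptor, to 1.26 for Rangap1, which activates the GTPase cycle of Ran, and all 3 intervals lay above 1. Genes of the centromere and kinetochore had the lowest median of the 9 role groups, 1.13 over 6 members. Nuf2, a subunit of the microtubule-binding NDC80 complex, was at 12.9 and 19.9 CPM, which gave a ratio of 1.54 (1.40 to 1.68). Its partner Ndc80 had a ratio of 1.12 (1.03 to 1.22). Cenpf (chromosome 1, 189640606 to 189688086), a large kinetochore protein that accumulates in G2, was at 171 and 173 CPM, which gave a ratio of 1.01 (0.986 to 1.04). Hjurp, the chaperone that loads the centromeric histone, had a ratio of 1.02 (0.986 to 1.06). Hjurp, Ndc80 and, below, Aurkb are named outside the rule for named genes, after their values were seen, as is the ratio of Ube2c, which is otherwise named only for its promoter.

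The spindle checkpoint kinases all had intervals above 1, from Bub1b at 1.30 (1.22 to 1.40) to Bub1 at 1.45 (1.35 to 1.55). The chromosomal passenger complex, which corrects faulty attachments and starts cytokinesis, had the highest median, 1.53 over 3 members. Birc5 (survivin; chromosome 11, 117849251 to 117855743) was at 118 CPM in the control and 201 CPM in the antagonist one, which gave a ratio of 1.70 (1.66 to 1.75). Aurkb, the kinase of the complex, had a ratio of 1.53 (1.42 to 1.64), and Cdca8 (borealin) 1.15 (1.12 to 1.19). Subunits of 1 complex therefore ran from the second highest ratio of all members to a ratio near the lower end.

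The spindle group was the largest, with 15 members, 13 of them with an interval above 1, and it held the highest and the lowest ratio of all. Tubb4b (chromosome 2, 25222160 to 25224702), a beta-tubulin also made by resting cells, was at 144 and 251 CPM, which gave a ratio of 1.74 (1.70 to 1.79). Aurka (chromosome 2, 172356190 to 172370535), the kinase of centrosome maturation, was at 23.1 and 32.4 CPM, which gave a ratio of 1.40 (1.31 to 1.5). Psrc1 (chromosome 3, 108383839 to 108388231), a microtubule-associated protein, was the only member with an interval below 1, at 10.0 CPM in the control and 4.75 CPM in the antagonist one, which gave a ratio of 0.474 (0.409 to 0.548). It was counted 663 and 258 times, so its level rests on few molecules. Kif2c, a kinesin that takes microtubules apart at centromeres, was at 13.5 and 13.2 CPM, which gave a ratio of 0.977 (0.884 to 1.08).

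The cytokinesis group ran from Anln (anillin), a scaffold of the contractile ring, at 1.5 (1.40 to 1.60) to Ect2, the exchange factor that places the ring, at 1.02 (0.949 to 1.09). Of the 4 genes of ubiquitin ligases and their partners, all had an interval above 1. Cdc20 (chromosome 4, 118432901 to 118437352), which activates the anaphase-promoting complex, was at 41.2 and 60.5 CPM, which gave a ratio of 1.47 (1.39 to 1.54). Cdca3, a mitotic entry factor, also had a ratio of 1.47 (1.42 to 1.51), Ube2c, the ubiquitin-conjugating enzyme of that complex, 1.39 (1.36 to 1.42), and G2e3 1.11 (1.05 to 1.17). The 6 members whose interval included 1 were Ccnb2, Ncapd2, Cenpf, Hjurp, Kif2c and Ect2, spread over 5 of the role groups. Across the 52 members the ratio had a Spearman correlation of -0.32 with the length of the longest transcript, and of -0.09 across 13741 genes. Genes are not independent replicates, and this is a description only.

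To separate the number of cells from the level in them, each cell was thinned to 2000 UMIs, and the members with at least 1 UMI in it, called held here, were counted. Thinning was needed because a deeper cell shows more genes. It left out 2380 control cells (21.1%) and 4115 antagonist cells (37.3%) that had fewer UMIs. The median cell held 4 members among 8883 control cells and 8 among 6904 antagonist cells, with highest values of 30 and 32. Of the 52 members, 49 were found in a larger share of the antagonist cells, as were 32.3% of 12188 genes. Mki67 was found in 24.0% and 30.2% of cells, Top2a in 29.7% and 44.2%, Cdk1 in 14.9% and 25.3%, Birc5 in 16% and 28.3%, and Ccnb1 in 4.18% and 6.13%. In enterocyte-like cells, which should lack it, Mki67 was found in 6.80% of control and 12.6% of antagonist cells, whose median depths before thinning were 10153 and 5299 UMIs.

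**Figure D2:**
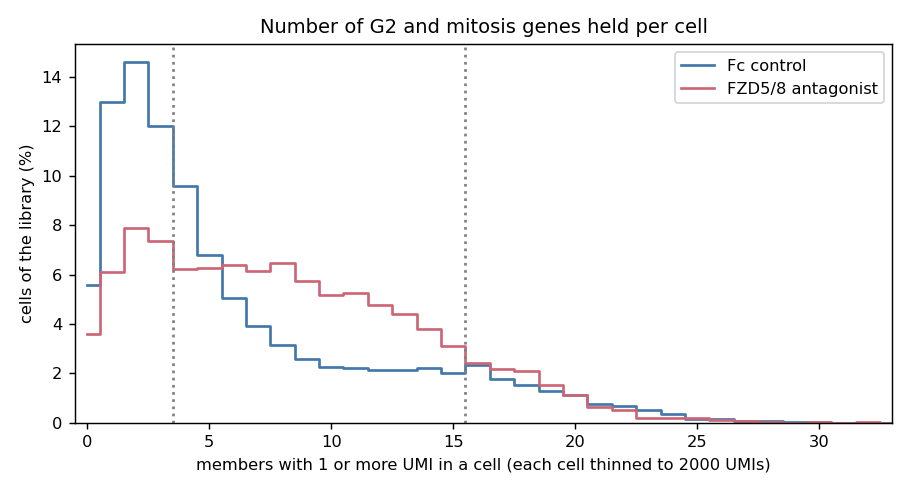
Share of each library's cells (%) by the number of members held, from 0 to 32, with every cell thinned to 2000 UMIs; dotted lines mark 4 and 16 members. At this depth the antagonist line lies above the control line between 6 and 15 members, and the lines run close together from 16 upwards.

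Cells holding 4 or more members made up 54.9% (53.8 to 55.9) of the control and 75.1% (74.0 to 76.1) of the antagonist library. Without thinning these shares were 75.5% and 79.2%. At 8 or more members they were 29.5% and 50%, and at 12 or more 19.3% and 27.4%. At 16 or more members the shares were 10.8% (10.2 to 11.5) and 11.3% (10.6 to 12.1), and the intervals overlapped. This near equality belongs to the depth of 2000 UMIs: at 3000 UMIs the shares at 16 or more were 19.7% (18.8 to 20.6) and 28.0% (26.8 to 29.3), and at 4000 UMIs 26.3% (25.2 to 27.4) and 43.6% (41.9 to 45.2). These depths were combined with 16 members after seeing the data, and left out 3727 and 5056 control cells and 5983 and 7437 antagonist cells. At 20 or more members the intervals overlapped at 3000 UMIs, 12.1% (11.4 to 12.9) and 13.2% (12.3 to 14.2), but not at 4000, 19.1% (18.2 to 20.1) and 24.3% (22.9 to 25.8). At 2000 UMIs the difference lay in the middle of the range. Cells holding 8 to 15 members were 18.7% of the control and 38.7% of the antagonist library, 20 percentage points more, and cells holding 0 to 3 were 45.1% and 24.9%. The share at 4 to 7 members was alike, 25.4% (24.5 to 26.3) and 25.0% (24.0 to 26.1).

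**Figure D3:**
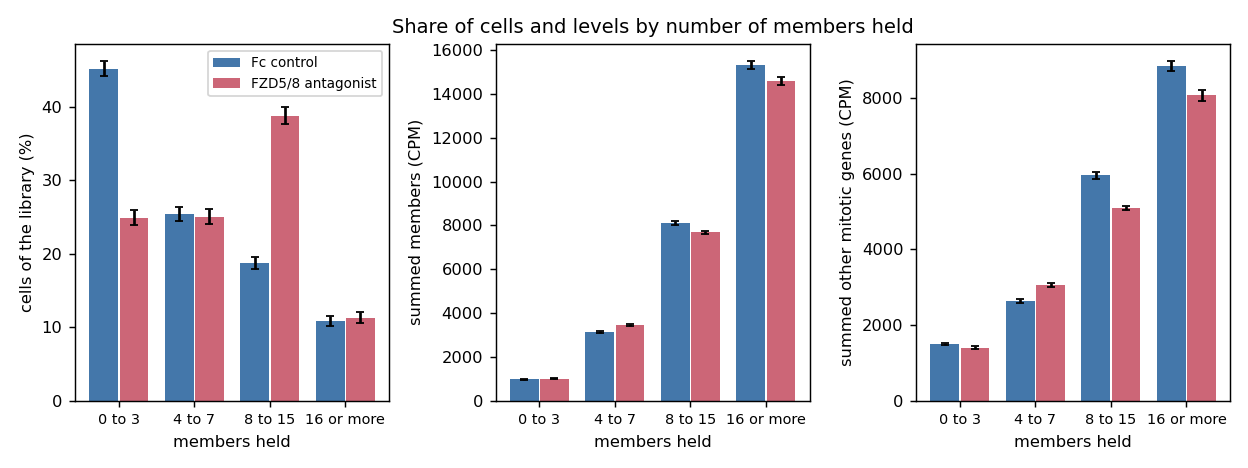
Cells grouped by the number of members held after thinning to 2000 UMIs: share of cells (left, %), summed members (middle, CPM) and summed other G2 and mitosis genes, which did not define the groups (right, CPM), with 95% counting intervals. The libraries differ most in the share of cells holding 8 to 15 members, 18.7% against 38.7%.

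How the summed level divided between cell number and level per cell depended on how many members a cell had to hold, and is given for 2000 UMIs only. At 4 or more members, giving the control library the antagonist library's share of such cells, at its own levels, raised its summed level 1.29-fold, and exchanging only the levels raised it 1.01-fold. The whole difference after thinning was 1.30-fold, from 4406 to 5737 CPM. At 8 or more members the share alone gave 1.42-fold and the levels alone 0.976-fold. At 16 or more members, where the shares at this depth were 10.8% and 11.3%, the order turned. There the share alone gave 1.01-fold and the levels alone 1.29-fold. The level outside such cells was 1.5-fold higher in the antagonist library and the level inside was 0.952 times that of the control. The summed level of the members is partly fixed by how many are held. The 92 other G2 and mitosis genes, which played no part in the grouping, gave the same turn. By share and by level they gave 1.21-fold and 0.966-fold at 4 or more members and 1.31-fold and 0.959-fold at 8 or more. At 16 or more they gave 1.01-fold and 1.16-fold. In cells holding 8 to 15 members these other genes summed to 5954 CPM (5871 to 6037) in the control and 5093 CPM (5033 to 5154) in the antagonist library. In cells holding 4 to 7 they summed to 2640.5 and 3063 CPM.

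Within the cells holding 4 or more members, most members no longer differed in a single direction. A ratio above 1 was found for 24 of 52, where 30.6% of 11509 genes had one, and the median ratio was 0.982, against 0.855 over all genes. The interval lay above 1 for 12 members (15% of all genes), below 1 for 15 (41.4% of all genes) and included 1 for 25. No member was at least 1.5-fold higher (6.59% of all genes) and 1, Psrc1, was at least 1.5-fold lower (22.5% of all genes). With the measured gene left out of its own count of members held, 29 had a ratio above 1 and the median was 1.01. The count was 38 when these cells were scaled by the median of gene ratios in place of their totals, and 47 without thinning. At 8 or more members it was 5. The share of all genes above 1 was computed only for the setting that gave 24. The other counts therefore cannot be set against the 30.6%, and scaling by the median of gene ratios moves that share too.

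Birc5 was the highest inside these cells, at 173 CPM in the control and 242 CPM in the antagonist one, which gave a ratio of 1.40 (1.31 to 1.48). Cdk1 followed at 157 and 206 CPM, which gave a ratio of 1.31 (1.23 to 1.40), Tubb4b at 1.31 (1.23 to 1.39) and Nuf2 at 1.25 (1.02 to 1.53). Psrc1 was the lowest, at 17.8 and 5.30 CPM, which gave a ratio of 0.297 (0.215 to 0.405). Cenpf was at 300.0 and 209 CPM, which gave a ratio of 0.695 (0.657 to 0.735), Kif2c at 0.701 (0.567 to 0.865) and Ncapd2 at 0.745 (0.661 to 0.840). Birc5 stayed above 1, and Psrc1, Cenpf and Kif2c below 1, under all 22 alternatives tried for them. On the log2 scale Cenpf came as near to no difference as -0.01 and Kif2c as -0.08. The nearest values of Birc5 and Psrc1 were 0.17 and -1.10. Cdk1 and Tubb4b fell below 1 under 1 alternative, 16 or more members at 4000 UMIs. Nuf2 and Ncapd2 also changed direction, as given with the alternatives.

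The named markers of proliferation took different places. Mki67 was at 331 CPM in the control and 284 CPM in the antagonist cells, a ratio of 0.859 (0.817 to 0.904), opposite in direction to its ratio over all cells, and this direction changed with the depth of thinning. Top2a was at 509 and 503 CPM, which gave a ratio of 0.987 (0.949 to 1.03). The intervals of Ccnb1 at 1.12 (0.979 to 1.29), Aurka at 1.05 (0.908 to 1.22) and Cdc20 at 1.02 (0.925 to 1.13) included 1, and Ccna2 was at 1.11 (1.02 to 1.21). By role, the median inside these cells ran from 0.843 for the centromere and kinetochore to 1.12 for the cyclin and CDK1 group.

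The step from cells holding 4 to 7 members to cells holding 16 or more was smaller in the antagonist library for 49 of 52 members, each gene being left out of its own count. The median step was 6.60-fold in the control and 4.02-fold in the antagonist library. This step was not computed over all genes or at other depths, so the count of 49 has no share beside it. Cells holding 4 to 7 members had a median of 5 held in the control and 6 in the antagonist library. Their summed members were at 3130.5 and 3447 CPM. The groups were cut on members of this same list, and the part of the grouping in the smaller step was not tested. Aurka went from 7.10 to 87.6 CPM in control cells, 12.3-fold, and from 14.9 to 85.9 CPM in antagonist cells, 5.77-fold. For Cdk1 the step was 5.33-fold, from 59.4 to 317 CPM, and 3.19-fold, from 117 to 373 CPM. Aurka thus reached similar levels in the cells of both libraries that held 16 or more members at this depth and differed in the cells holding 4 to 7. Lbr had the smallest step in the control library, 1.84-fold, and 1.75-fold in the antagonist library.

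The members were spread over cell types in different ways. Cells were clustered with the members, the other mitotic genes and the S phase genes left out, which gave 15 clusters, 9 of them named by markers. The 6 unnamed clusters held 15.6% of the kept control and 79.9% of the kept antagonist cells, and most clusters came mainly from 1 library, so a cluster may stand for a library. In enterocyte-like cells, 18.8% (14.2 to 24.2) of control and 29.9% (26.3 to 33.7) of antagonist cells held 4 or more members. In tuft-like cells the shares were 32.9% and 44.9%, in enteroendocrine-like cells 35.1% and 48.0%, and in goblet-like cells 51.9% and 59.3%, with overlapping intervals in these 3 classes. Stem-like cells are given by cluster, since the clusters made up different shares of them in each library. In cluster 2 the shares were 54.8% (52.7 to 56.9) of 2301 control and 75% (56.6 to 88.5) of 32 antagonist cells, in cluster 3 35.8% (33.9 to 37.8) of 2347 and 45.5% (30.4 to 61.2) of 44, and in cluster 10, led by Reg3g, Reg3b and the antigen presentation genes H2-Aa and Cd74, 54.7% (51.1 to 58.2) of 770 and 67.2% (54.3 to 78.4) of 64. The intervals overlapped in all 3. These cell numbers are of thinned cells. Cluster 1 held 2517 kept control and 80 kept antagonist cells. After thinning, 634 control cells were left, 70% (66.3 to 73.6) of which held 4 or more, and under 20 antagonist cells. The higher antagonist share did not extend to every cluster. In the unnamed cluster 0 the shares were 78.7% (67.7 to 87.3) of 75 control and 74.4% (71.9 to 76.8) of 1219 antagonist cells. In cluster 5 they were 53.2% (46.8 to 59.5) of 252 and 57.7% (55.0 to 60.4) of 1291. In cluster 6 they were 97.2% of 108 and 97.3% of 1337.

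Paneth-like cells differed most: 14.2% (8.14 to 22.3) of 106 control cells and 77.8% (73.4 to 81.7) of 400 antagonist cells held 4 or more members, whereas 0 of the control cells, which allows a share of up to 2.83%, and 1% (0.273 to 2.54) of the antagonist cells held 16 or more. The median depth of these cells before thinning was 21566 UMIs in the control and 3414 UMIs in the antagonist library, and their Paneth markers were at 368292 and 174328 CPM. A further cluster, number 8, was led by Zg16, Xist and Clca1 and held 4 kept control cells and 1210 kept antagonist cells. Of its 1086 thinned antagonist cells, 98.6% held 4 or more members but 2.03% held 16 or more. Their median depth was 8805 UMIs, and they carried Paneth markers at 22843 CPM, goblet markers at 6895 CPM and enterocyte markers at 2362 CPM. This cluster also held 84 of the 127 kept antagonist cells with a barcode found in both libraries. Without it and the Paneth-like cluster, left out after seeing the data, the share of cells holding 4 or more members differed by 14.8 percentage points, against 20.2, and the median log2 ratio over all cells was 0.28. The unnamed cluster 4 had a like profile and was not left out. Of its 315 thinned antagonist cells, 94.6% held 4 or more members and 3.17% held 16 or more. Their Paneth markers were at 14913 CPM and goblet markers at 2198 CPM. Depth, markers of other cell types and the barcodes found in both libraries moved with these shares, and their part in the difference was not tested.

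The clusters with the most members per cell were led by histone genes. Histone genes are on none of the lists left out of the clustering, so it was not free of cell cycle genes. In cluster 7, 98.8% of 1180 control cells held 4 or more members and 38.5% (35.7 to 41.3) held 16 or more. In cluster 6, 97.3% of 1337 antagonist cells held 4 or more and 26.9% (24.5 to 29.3) held 16 or more. Cluster 7 had 7 of 9 stem markers raised but no name, because Igkc, a marker of B and plasma cells, was among its 10 leading genes and no stem marker was, so its cells are not among the stem-like ones. The summed members were at 10717 CPM in the control cells of cluster 7 and 9263 CPM in the antagonist cells of cluster 6. Each cluster came almost wholly from 1 library. In cluster 7, 38.1% (18.1 to 61.6) of 21 antagonist cells held 16 or more. In cluster 6, 27.8% (19.6 to 37.2) of 108 control cells did, with summed members at 9444 CPM. Within each of these clusters the intervals of the libraries overlapped.

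**Figure D4:**
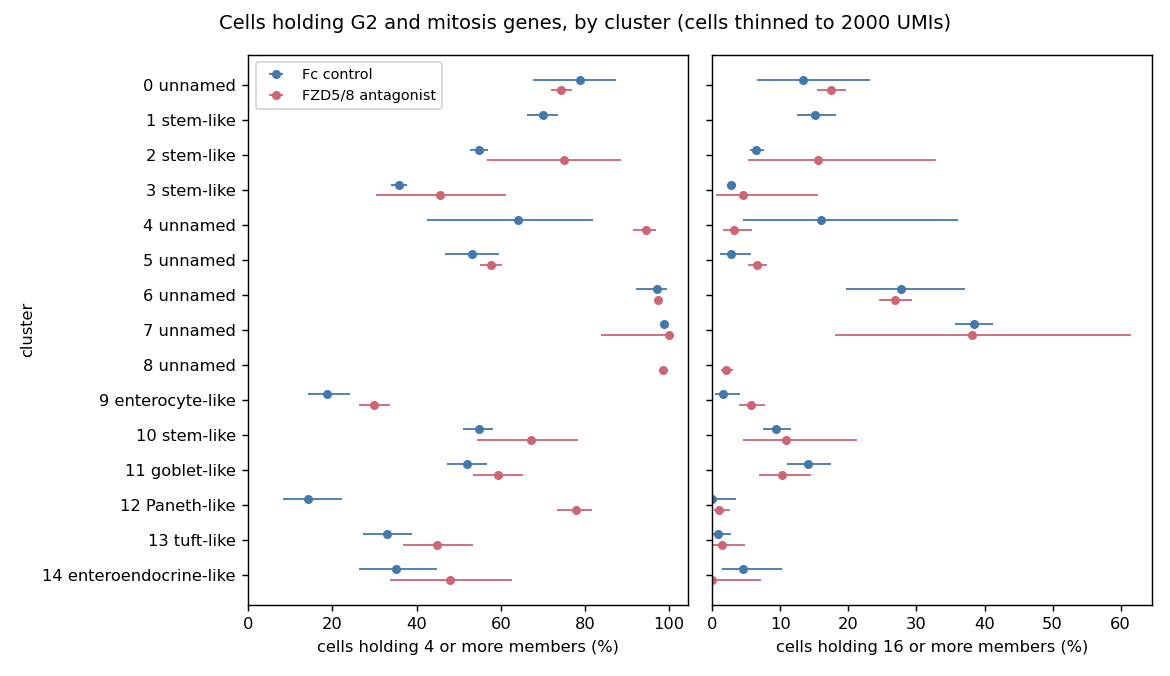
Share of cells holding 4 or more (left) and 16 or more (right) members (%), by cluster and library, with every cell thinned to 2000 UMIs and 95% counting intervals; library and cluster pairs with too few cells to plot have no point. Paneth-like cells stand at 14.2% in the control and 77.8% in the antagonist library on the left and at 0 and 1% on the right.

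Cells with and without an Lgr5 UMI were compared within each library. In the control library, 49.3% (46.5 to 52.2) of 1220 cells with an Lgr5 UMI and 55.8% (54.7 to 56.9) of 7663 cells without held 4 or more members, and 11.4% and 10.7% held 16 or more. In the antagonist library, 49 cells had an Lgr5 UMI, and 73.5% (58.9 to 85.1) of them held 4 or more members, against 75.1% of the rest. After thinning, 13.7% of control cells had an Lgr5 UMI, as did 1.2% (upper end of the interval 3.47%) of control enterocyte-like cells. In the antagonist library it was found in 0.710% of all cells and in 0 of 619 enterocyte-like cells, which allows a share of up to 0.485%. With Olfm4, a second stem cell marker, the order in the control library at 4 or more members was the other way: 56.0% (54.9 to 57.1) of cells with an Olfm4 UMI and 46.4% (43.3 to 49.6) of those without held 4 or more members. In the antagonist library these shares were 79.4% (77.6 to 81.0) and 73.0% (71.7 to 74.2). This order did not hold at higher counts of members. At 8 or more the shares with and without an Olfm4 UMI were 29.5% and 29.8% in the control library, and at 16 or more they were 10.7% and 11.6% in the control and 9.93% and 12.0% in the antagonist library.

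The rest of the pathway was covered by 92 measured genes of a list of 96 that shares no gene with the members. Of these, 73 had a ratio above 1 over all cells (34.7% of all genes), 68 an interval above 1 (22.3%) and 12 an interval below 1 (46.3%). The median ratio was 1.19. Over all genes, 6.51% were at least 1.5-fold higher and 19.5% at least 1.5-fold lower. Without the barcodes found in both libraries 72 had a ratio above 1, a count with no share of all genes computed beside it. The 7 at least 1.5-fold higher included Kpna2, an importin alpha subunit, at 17.8 and 30.2 CPM, which gave a ratio of 1.69 (1.57 to 1.83). Pbk, a mitotic kinase, had a ratio of 1.62 (1.54 to 1.70) and Melk, another, 1.60 (1.5 to 1.71). Lowest among those with 100 or more UMIs was Wee1, the kinase that holds CDK1 inactive, at 45.4 and 31.4 CPM, which gave a ratio of 0.692 (0.652 to 0.734). Stmn1, which destabilises microtubules, was at 562 and 409 CPM, which gave a ratio of 0.728 (0.716 to 0.740), and Cdc16, a subunit of the anaphase-promoting complex, at 0.794 (0.727 to 0.866). The 1 gene at least 1.5-fold lower was Pimreg, named after its value was seen, with 65 and 10 UMIs, 0.982 and 0.184 CPM and a ratio of 0.187 (0.0859 to 0.367). Plk1, a kinase of mitotic entry also named after its value was seen, had a ratio of 1.29 (1.23 to 1.36). All 5 genes of cohesin and separase and all 6 of condensin had a ratio above 1, with an interval above 1 for 5 of each. Of 8 genes of ubiquitin ligases and their partners, 4 had a ratio above 1 and 4 an interval below 1. Of 21 genes of the spindle and motors, 14 had a ratio above 1 and 5 an interval below 1. Within the cells holding 4 or more members, 38 of the 92 had a ratio above 1 (30.6% of all genes) and the median was 0.979.

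S phase genes differed in both directions. Of 46, 26 had a ratio above 1 (34.7% of all genes), 25 an interval above 1 (22.3%) and 13 an interval below 1 (46.3%). The median ratio was 1.07, and their sums were 2617 and 2619 CPM. These sums include Cdca7, which had the highest control level of the list and was lower in the antagonist library. Without the barcodes found in both libraries 23 had a ratio above 1 and the median log2 ratio was 0.01, again with no share of all genes computed. E2f8, a repressor of the cell cycle programme, had a ratio of 2.05 (1.93 to 2.19), Rrm2, which makes deoxynucleotides, 1.99 (1.89 to 2.09), and Ccne1, the cyclin of S phase entry, 1.72 (1.57 to 1.88). Cdca7 was at 339.5 and 118 CPM, which gave a ratio of 0.346 (0.337 to 0.356), and Ung, a glycosylase of DNA repair, had a ratio of 0.733 (0.685 to 0.784). Among cells holding 4 or more members, 64.5% (63.1 to 65.8) of control and 65.7% (64.4 to 67.0) of antagonist cells held 4 or more S phase genes. In cells holding 16 or more members these shares were 60.7% (57.5 to 63.8) and 50% (46.4 to 53.6), and in cells holding 4 to 7 members 64.0% (61.9 to 65.9) and 71.4% (69.2 to 73.5).

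Outside all lists, 5100 genes had enough UMIs to be ranked by how much higher they were in cells holding 4 or more members than in the other cells, taking the lower of both libraries. The first 10 were Hist1h2ap, Hist1h2ae, Hist1h1b, Gas2l3, Hist1h2af, C330027C09Rik, Arhgap19, Hist1h2bm, Neil3 and Hist2h2ac. Hist1h1b, a linker histone gene, was at 500.4 CPM inside and 43.9 CPM outside in the control library, 11.4-fold, and at 356 and 48.5 CPM in the antagonist library, 7.33-fold. Gas2l3, a cytoskeletal linker gene, was 10.6-fold and 6.76-fold higher inside. Of these 10, 6 are histone genes, whose reads may be shared with near-identical copies, so their single values are uncertain.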

How the data were processed

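The deposited matrices give raw UMI counts for 31053 genes in each barcode. Cell Ranger and the GRCm38 (mm10) build are named in the submitters' processing notes, and version 3.1.0 of the software in the file headers. The sources used here do not give how the authors chose barcodes. Members and lists were chosen with earlier results of these data known.

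Kept cells had 500 or more genes and no more than 20% mitochondrial UMIs, which left 88.9% of control and 84.2% of antagonist barcodes. No doublet caller was run. UMIs were summed per library and scaled to CPM. Levels have exact Poisson, ratios exact conditional binomial and shares Clopper-Pearson intervals at 95%. Where no cell or UMI was found, the limit is that of 3 counts. Nothing was tested for significance. Thinning drew 2000 UMIs per cell without replacement. Clustering used scanpy 1.11.5 and leidenalg 0.10.2 with 2000 variable genes, 30 principal components, 15 neighbours and resolution 1.0. A cluster's name needed at least 3 markers, and 33% of its list, each at 1.5 times the other cells, in 5% of its cells and at 20% of its highest cluster. It was withheld where markers of another class outnumbered those of its own among the 10 leading genes, or where the cells were much shallower than their library and none of its markers was there. The calculation of intervals and the thinning were run on simulated counts with known answers, at another depth and number of members held than used here. This checked the calculation only and not the spread between cells or mice. Coordinates are from GENCODE on GRCm38. Of the members, 13 overlap another annotated gene on the same strand.

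Named genes were 8 fixed members (Mki67, Top2a, Cdk1, Ccnb1, Ccna2, Cdc20, Aurka, Cenpf), the highest and lowest ratio of each role, the 4 highest and 4 lowest within cells holding 4 or more members, the 3 highest and 3 lowest of each other list with 100 or more UMIs, and 10 unlisted genes ranked by their ratio inside over outside these cells. Alternatives were other cell filters, scalings, count limits, depths of thinning, numbers of members held and cells left out. Of the genes this rule names, 1 is not reported here.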

Additional observations from a re-analysis of the deposited data

How the results depend on the processing

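Over all cells, the number of members above 1 ran from 46 to 51 and their median log2 ratio from 0.28 to 0.50 under 12 alternatives, and the number at least 1.5-fold higher ran from 1 to 17. The median log2 ratio of genes with 100 or more UMIs in each library was -0.11, and scaling by it set that median to 0, which gave the count of 17. Of 46 members whose interval excluded 1, 1 changed direction: Cdca2, at -0.04 without cluster 8 and the Paneth-like cluster. The other G2 and mitosis genes above 1 ran from 71 to 78 and the S phase genes from 23 to 35. Shares over all genes were not computed for these alternatives.

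The difference in the share of cells holding 4 or more members was 20.2 percentage points. It was 16.6 with cells thinned to 3000 UMIs, 10.7 at 4000 and 3.71 without thinning. It was 8.84 at 2 or more members, 15.6 at 3, 24.1 at 6, 8.11 at 12 and 0.468 at 16, 24.1 without the clusters named as differentiated types and 14.8 without cluster 8 and the Paneth-like cluster. At 16 or more members it was 8.39 at 3000 UMIs and 17.3 at 4000.

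Within these cells, 24 members were above 1, beside 30.6% of 11509 genes. That share was not computed for the alternatives, so their counts cannot be set against it. The count was 38 with median-of-ratios scaling, 42 at 4000 UMIs, 47 without thinning, 43 at 2 or more members, 8 at 6, 5 at 8, 7 at 12, and at 16 or more 6 at 3000 UMIs and 2 at 4000. Directions within these cells turned for Nuf2 (-0.18 at 1000 UMIs, and at 16 or more members -0.33 at 3000 and -0.34 at 4000 UMIs), Cdk1 (-0.04) and Tubb4b (-0.03), both at 16 or more members and 4000 UMIs, Mki67 (0.01 at 4000 UMIs, 0.36 without thinning, 0.06 at 2 or more members), Ncapd2 (0.03 without thinning) and Ccna2 (-0.08 at 6, -0.13 at 8, -0.06 at 12 or more members, and -0.08 at 16 or more and 4000 UMIs), on the log2 scale. The cause was not tested. The difference between control cells with and without an Lgr5 UMI was -6.43 percentage points and -1.56 at 3000 UMIs. Settings at 12 and 16 members, and the cells left out by cluster 8 or shared barcodes, were chosen after seeing the data. No paired analysis was possible because each condition has 1 library and the labels give no replicate numbers. Low counts limit members such as Psrc1, and intervals leave out the spread between mice.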
